A study of Mus musculus with 106 samples.

Results

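The insulin-like growth factor (IGF) axis genes described here are 10 genes: Igf1, Igfals, Ghr and the binding protein genes Igfbp1 to Igfbp7. They were chosen by symbol, with earlier results of these data known. All 10 were found in each of the 4 count tables, among 21647 genes in the table with the most libraries and 23393, 23420 and 23420 genes in the others. Growth hormone acts on its receptor GHR, in liver above all, where it raises transcription of Igf1 through JAK2 and STAT5. IGF-1 then travels in blood in a complex with an IGF binding protein and the acid-labile subunit, which Igfals encodes, and acts on the IGF-1 receptor in many tissues. The binding proteins carry IGFs, hold them away from the receptor or release them when proteases cut the binding protein, and several are made mainly by connective tissue and vessel cells.

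The study asked how long-term cold and warmth change gene expression across organs of wild type male C57BL/6J mice. Total RNA of 11 tissues from mice kept at 10 °C, and of 5 of these tissues from mice kept at 34 °C, was sequenced beside controls at 22 °C, giving 106 libraries in 31 groups. Cold mice spent 2 weeks at 10 °C after 5 days each at 18 °C and 14 °C, and warm mice spent 4 weeks at 34 °C. The labels give an age of 11 weeks for the cold mice and their controls and 12 weeks for the warm mice, their controls and all quadriceps samples. Each group has 3 libraries, with 6 for bone marrow at both temperatures and for quadriceps at 22 °C, and 5 for spinal cord. Most libraries pool 2 mice, bone marrow and spinal cord libraries are single mice, and brown fat of the warm set mixes single mice and a pool, so the spread between libraries does not stand for the same number of mice in every tissue. Cold and warm mice came from different suppliers and most tissues were sequenced apart, so each temperature was compared with its own 22 °C libraries. Quadriceps is the exception, with all its libraries in 1 table. The labels do not tie its 6 controls to a temperature, so all 6 were used for both, which may mix suppliers.

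Library totals ran from 4262403 to 25964912 counts in the table of 8 tissues, from 29545458 to 62880248 in the table that holds the warm tissues and quadriceps, and from 15591374 to 29029283 in bone marrow and spinal cord. Several libraries stood apart from their labels. In brain at 22 °C, replicate 2 had a sum of 67882 CPM (counts scaled to the library's total) over 6 hepatocyte markers against 737 to 1103 in the other 5 brain libraries of the cold set, and it had 478 CPM of Igf1 against 7.23 and 9.75 in the other 22 °C libraries. Epididymis markers in perigonadal fat at 10 °C summed to 17266 and 16808 CPM in replicates 1 and 3, to 3.14 in replicate 2, and to 504 to 2557 at 22 °C. In inguinal fat at 22 °C, 7 fibroblast markers summed to 18605 and 12796 CPM in replicates 1 and 2 and to 5529 in replicate 3, against 3182 to 5767 at 10 °C. Counts of called members that rest on these libraries are given with and without them, and the part of these markers in the results was not tested beyond that. These are bulk samples, in which fewer cells of a type and less RNA per cell cannot be told apart.

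On the genome (GRCm38, the same assembly as mm10, GENCODE M21) several members lie side by side. Igfbp2 (chr1:72824503-72852474, plus strand) and Igfbp5 (chr1:72857932-72874884, minus strand) end 5457 bases apart, tail to tail, and Igfbp1 (chr11:7197782-7202546, plus strand) and Igfbp3 (chr11:7206086-7213923, minus strand) end 3539 bases apart in the same way. Igfals is at chr17:24865997-24882010 and Igfbp4 at chr11:99041244-99054392, both on the plus strand. Igf1 is at chr10:87858265-87937042 (plus strand) and Ghr at chr15:3317760-3583492 (minus strand). Igfbp6 is at chr15:102144362-102149511 (plus strand) and Igfbp7 at chr5:77349240-77408041 (minus strand).

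All 10 members have a promoter window in RefSeq (GRCm38.p6), reaching from 250 bases before the start to 50 after it. Each window was searched on both strands for 3 sets of letters: TTCNNNGAA, the form of a STAT5 site, CAAAACA, the core of the insulin response element, and GTAAACA, the forkhead core. Of 32851 windows of all genes, 8.3% held TTCNNNGAA, 6.28% CAAAACA and 3.65% GTAAACA. Igfals and Igfbp1 were the members with a match. The windows below are those of these genes, shown for the matches, and of Igfbp5 and Igfbp7, 2 of the members called in more than 1 fat comparison, shown beside them as windows with no match. Each is printed 5′ to 3′ on the strand of its gene, upstream part only and without annotated exon bases, with matches in capitals.
Igfals, chr17:24877981-24878214, plus strand: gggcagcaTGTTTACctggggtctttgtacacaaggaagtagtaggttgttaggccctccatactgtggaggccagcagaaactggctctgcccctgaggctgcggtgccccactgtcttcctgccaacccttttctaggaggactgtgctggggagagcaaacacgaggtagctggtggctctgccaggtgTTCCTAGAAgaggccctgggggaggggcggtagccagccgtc
Igfbp1, chr11:7197537-7197781, plus strand: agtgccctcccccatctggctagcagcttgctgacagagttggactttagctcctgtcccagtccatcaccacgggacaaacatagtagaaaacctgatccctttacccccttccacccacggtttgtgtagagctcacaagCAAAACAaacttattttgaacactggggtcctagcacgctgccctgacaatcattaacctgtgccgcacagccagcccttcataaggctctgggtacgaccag
Igfbp5, chr1:72874885-72875115, minus strand: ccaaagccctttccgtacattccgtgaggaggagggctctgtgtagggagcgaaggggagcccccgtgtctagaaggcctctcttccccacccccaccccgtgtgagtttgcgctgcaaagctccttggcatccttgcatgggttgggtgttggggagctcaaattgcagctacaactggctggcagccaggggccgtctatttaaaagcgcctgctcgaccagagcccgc
Igfbp7, chr5:77408046-77408295, minus strand: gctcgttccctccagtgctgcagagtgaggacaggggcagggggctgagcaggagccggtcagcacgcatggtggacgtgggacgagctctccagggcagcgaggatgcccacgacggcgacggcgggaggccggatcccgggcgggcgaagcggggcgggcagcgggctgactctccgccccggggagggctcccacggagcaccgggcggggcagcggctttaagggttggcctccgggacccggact
In the Igfals window the first capitals are GTAAACA read on the other strand and the later ones are a TTCNNNGAA match. A second Igfals start carries 1 more TTCNNNGAA match, which lies within chr17:24877594-24877655, and in the Igfbp1 window the capitals are CAAAACA. The Igfbp7 window is 74.0% G and C and the Igfbp5 window 58.8%, against a median of 52.4% over all windows. Letters that match are a description of the window, and their absence says nothing of what binds there.

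Liver is the main source of circulating IGF-1. In the cold none of its endocrine members, Igf1, Igfals and Ghr, was called, and the single called member was Igfbp5, which was lower. A gene is called changed here when its unadjusted p was at most 0.05 in edgeR's quasi-likelihood F-test and its fold change was above 1.5, the limits of the study, and adjusted p values are Benjamini-Hochberg values over all genes tested in that comparison. All 10 members passed the filter on low counts in liver at 10 °C and 1 was called. Of 12028 genes tested 3.2% were called, 2.44% lower. The median log2 fold change was −0.08 over the members and 0.02 over all genes.

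Igf1 in liver was 796, 514 and 593 CPM at 22 °C and 541, 554 and 509 CPM at 10 °C. The groups overlapped and the change was not called (log2 fold change −0.25, standard error 0.14, adjusted p = 0.379, edgeR). Ghr, the receptor that drives Igf1, was 669 ± 48.7 CPM in controls and 730 ± 23.8 CPM in cold liver (SD, n = 3 each). Its log2 fold change was 0.13, at an adjusted p of 0.44 in the same edgeR fit. Igfals had 171, 120 and 150 CPM at 22 °C against 186, 171 and 207 at 10 °C, with the lowest cold library just above the highest control. Its log2 fold change, 0.36 (with a standard error of 0.13; adjusted p = 0.196, edgeR), is under the fold limit, and groups without overlap were found for 24.2% of all genes tested.

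Among the binding proteins, Igfbp5, which binds both IGFs and extracellular matrix, had 23.1, 11.0 and 9.44 CPM at 22 °C and 8.96, 8.20 and 6.36 CPM at 10 °C in liver. No cold library reached the controls, and the distance rests mostly on control replicate 1. This was a log2 fold change of −0.90 (with a standard error of 0.31; adjusted p = 0.186, edgeR). Without control replicate 1 it was −0.39, under the fold limit, and without 10 °C replicate 3 it was −0.76 and missed the p limit, so the call did not stand in either case. The hepatocyte-made Igfbp1, an acute insulin-suppressed member, spanned 70.1 to 132 CPM at 22 °C and 49.0 to 126 at 10 °C, wide and overlapping. Igfbp2 (495 against 479 CPM), Igfbp3 (17.8 against 18.2) and Igfbp4 (1109 against 1027) had close means at 22 °C and 10 °C, and none of them was called. Igfbp7 was 39.2 to 58.7 CPM at 22 °C and 59.9 to 62.3 at 10 °C, without overlap, at a log2 fold change of 0.23 (adjusted p = 0.395, edgeR). The summed hepatocyte markers moved too, from 67436 to 73511 CPM at 22 °C to between 89641 and 94975 at 10 °C.

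At 34 °C again none of Igf1, Igfals and Ghr was called in liver. All 10 members were tested and 1, Igfbp6, was called lower, where 3.39% of 11179 genes were called and 1.65% were lower. Igf1 was 491 ± 55.9 CPM (SD, n = 3) at 22 °C and 523 ± 63.1 (SD, n = 3) at 34 °C. Igfals averaged 134 CPM at 22 °C and 147 at 34 °C, and Ghr 476 and 496 CPM. Their edgeR adjusted p values were 0.831, 0.787 and 0.855. The median log2 fold change was 0.11 over the members and 0.00 over all genes, and hepatocyte markers summed to between 92304 and 104867 CPM at 22 °C and between 129901 and 138749 CPM at 34 °C.

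Igfbp6, which prefers IGF-2, is a minor transcript in liver. It had 2.67, 2.65 and 3.62 CPM at 22 °C and 2.30, 1.07 and 1.81 CPM at 34 °C. Every warm library was below every control, as for 17% of all genes tested, with a log2 fold change of −0.79 (with a standard error of 0.30; adjusted p = 0.381, edgeR). The call was lost without control replicate 3 (−0.62) or without 34 °C replicate 2 (−0.54). Igfbp1 ran from 31.1 to 132 CPM at 34 °C, wider than the 51.2 to 81.0 CPM of its controls. The plot of liver libraries shows both comparisons.

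**Figure D1:**
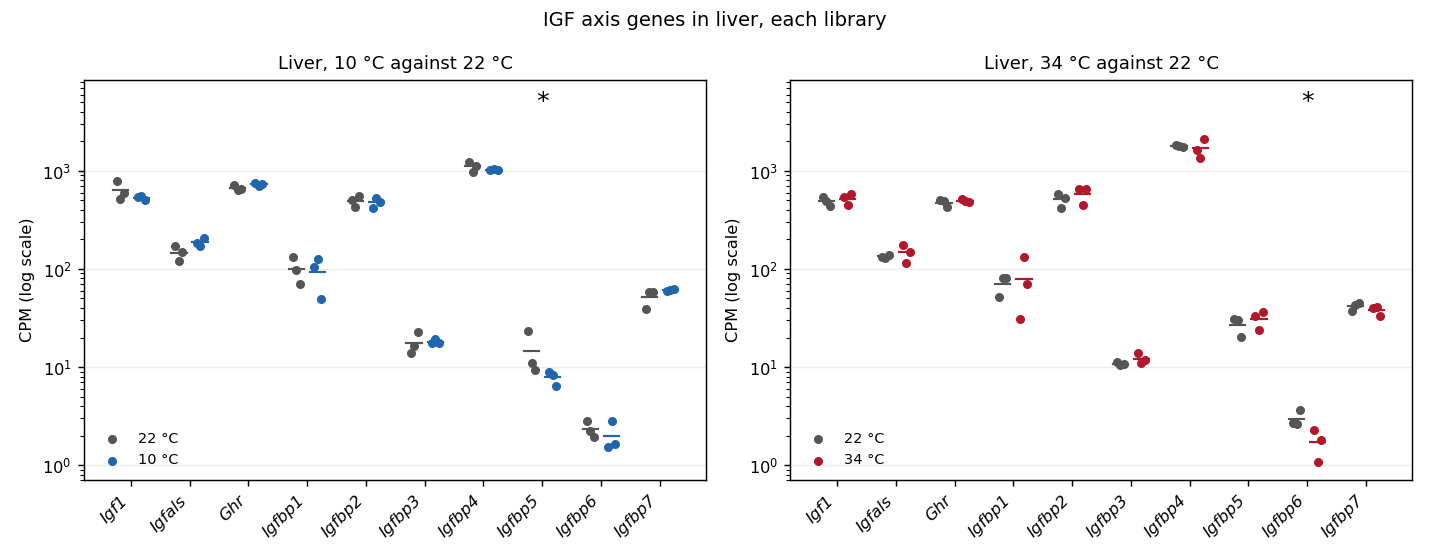
CPM of the 10 members in each liver library on a log axis, in 2 panels for 10 °C and 34 °C, each beside its own 22 °C libraries. Points are libraries, short lines are group means and stars mark called members. The endocrine members Igf1, Igfals and Ghr overlap or nearly meet between temperatures, and the stars stand over Igfbp5 at 10 °C and Igfbp6 at 34 °C.

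Around the members, other genes of growth hormone and IGF signalling were read from a list of 28. In liver at 10 °C 14 of them passed the filter and 1 was called, beside 3.2% of all genes. It was Irs2, an insulin receptor substrate, which was lower (90.1 against 56.5 CPM, log2 fold change −0.67, adjusted p = 0.196, edgeR). This call was lost without 10 °C replicate 1 or 3 or control replicate 1. At 34 °C 2 of 14 were called higher and 1 lower, beside 3.39% of all genes called in either direction. Socs3, a feedback inhibitor of JAK signalling, rose from 9.64 ± 1.40 to 25.8 ± 4.99 CPM (SD, n = 3 each; log2 fold change 1.42, adjusted p = 0.0163, edgeR), with no overlap. Cish, another STAT5-induced inhibitor, went from 15.5 to 36.8 CPM with overlapping libraries (1.25, adjusted p = 0.34, edgeR), and Stat5a from 12.7 to 7.83 CPM (−0.70, adjusted p = 0.236, edgeR). The call of Cish was lost without control replicate 1 or 3 or 34 °C replicate 3, and that of Stat5a without control replicate 3 (−0.45).

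Liver genes whose level follows the sex-specific pattern of growth hormone were read as 2 further lists. Of 9 male-biased genes none was called at 10 °C by the edgeR test, beside 3.2% of all genes. Some had an unadjusted p under 0.05 below the fold limit, and they went both ways. Hsd3b5 (0.43), Slco1a1 (0.24) and Cyp2d9 (0.19) were higher on the log2 scale, and Cyp4a12b (−0.52), Elovl3 (−0.38) and Cyp7b1 (−0.36) lower. Their edgeR adjusted p values were 0.104 to 0.251. The share of all genes at that unadjusted p was not counted, so these are not read as a result. At 34 °C 4 of the 9 were called lower, beside 1.65% of all genes. Cyp7b1, an oxysterol hydroxylase, fell from 338 ± 17.4 to 123 ± 43.0 CPM (SD, n = 3 each; log2 fold change −1.46, adjusted p = 0.0474, edgeR). Selenbp2 (1532 to 431 CPM, −1.83), Elovl3 (138 to 57.6 CPM, −1.26) and the urinary protein gene Mup20 (−0.70) were the other three, at edgeR adjusted p values of 0.241, 0.296 and 0.236. Mup20 lost its call without 34 °C replicate 2 (−0.49) and Elovl3 without control replicate 3 (−0.83). Of 7 female-biased genes 2 passed the filter at 34 °C and both were called higher, at adjusted p values of 0.162 and 0.329 in edgeR. Among all 11179 genes tested there 194 were called higher. Cyp2b9, with at most 11 counts in a control, passed the filter only through its warm libraries, so this count is not read as a result. Cyp2b9 went from 0.172 to 2.28 CPM and Cyp2a4 from 10.5 to 54.5 CPM, and the log2 fold change of Cyp2a4, 2.37 over all libraries, was 0.50 without 34 °C replicate 3. The call of Cyp2a4 was also lost without control replicate 2 or 3.

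Most member calls were in fat, where calls were also more common among all genes, at 8.17% to 19.4% against 0.193% to 3.39% in the other comparisons. The called members were not the same in the 3 depots, and whether a change at 10 °C differed between depots is tested further below. Inguinal subcutaneous fat (ingSAT) at 10 °C had lower levels of 5 binding proteins, of which 1 was still called without a pair of control libraries, interscapular brown fat (iBAT) at 34 °C had higher Igfbp3 and Igfbp7 and lower Igfals, perigonadal visceral fat (pgVAT) at 10 °C had lower Igfbp5, and brown fat at 10 °C had no called member. Igf1 itself was called in none of these 4 comparisons by edgeR's quasi-likelihood or exact test or by DESeq2. Igfbp1 had at most 11 counts in any fat library, and Igfbp2 passed the filter in pgVAT alone among the depots.

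In ingSAT at 10 °C 8 of the 10 members passed the filter and 5 were called, all lower. Over all 13977 genes 16.4% were called and 9.27% were lower, so calls were common in this depot. The median log2 fold change was −0.80 over the 8 members tested and −0.01 over all genes tested.

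Igfbp7, a matrix and vessel protein that binds IGFs weakly, had 365, 407 and 219 CPM at 22 °C and 145, 96.3 and 106 CPM at 10 °C in ingSAT. Each cold library was below each control. On the log2 scale Igfbp7 fell by 1.51 (with a standard error of 0.27; adjusted p = 0.0238, edgeR). Igfbp6 fell from 202, 187 and 88.7 CPM to 76.0, 40.7 and 45.6 CPM (−1.56, standard error 0.37; adjusted p = 0.0497, edgeR). Control replicate 3 was the lowest control for both genes and still above the cold libraries.

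Igfbp5 had 861, 635 and 282 CPM at 22 °C and 299, 196 and 203 CPM at 10 °C in ingSAT. Here control replicate 3 lay within the cold range, and the fold change on the log2 scale was −1.35 (with a standard error of 0.40; adjusted p = 0.0851, edgeR). Igfbp3, the main IGF carrier of blood, was 23.2, 35.6 and 22.7 CPM at 22 °C against 16.5, 16.7 and 12.7 CPM at 10 °C (−0.83, standard error 0.22; adjusted p = 0.0667, edgeR), without overlap. Groups without overlap were found for 32.8% of all genes in this comparison. Igfbp4, which inhibits IGF action until it is cut by the protease PAPP-A, was 615, 600 and 578 CPM against 455, 286 and 339 CPM (−0.73, standard error 0.19; adjusted p = 0.0624, edgeR). No cold library reached the controls. The call of Igfbp3 was lost without control replicate 2 (−0.58), and that of Igfbp4 without 10 °C replicate 2 (−0.56) or replicate 3 (−0.65). With an adjusted p under 0.05 asked for as well, Igfbp6 and Igfbp7 remain of the 5, against 6.7% of all genes.

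For Igfbp4 the ingSAT controls were close to each other, at 615, 600 and 578 CPM. Igfbp3 had 22.7 CPM in control replicate 3 against 23.2 CPM in replicate 1. The values of Igfbp5, Igfbp6 and Igfbp7 rest more on control replicates 1 and 2, the libraries with high fibroblast markers. With both left out, a setting added after the data were seen, in which the single remaining control is assumed to vary like the cold libraries, 1 of the 5 was called. Igfbp7 was then at −0.92 (adjusted p = 0.206, edgeR) and called. Igfbp5 was at −0.28, Igfbp6 at −0.71, Igfbp4 at −0.68 and Igfbp3 at −0.57, all missing the p limit. Without control replicate 1 alone Igfbp5 was at −0.98 and still called.

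The other members tested in ingSAT were not called. Igf1 averaged 372 CPM at 22 °C and 363 CPM at 10 °C, a log2 fold change of −0.04. Ghr, abundant in white fat, was 1669 ± 219 CPM (SD, n = 3) at 22 °C and 1293 ± 248 (SD, n = 3) at 10 °C (−0.37, adjusted p = 0.281, edgeR). Igfals went from 63.2 to 36.8 CPM (−0.78, adjusted p = 0.213, edgeR). It was called lower by edgeR's exact test (−0.78, adjusted p = 0.173) and by DESeq2 (−0.77, adjusted p = 0.143), and without control replicate 3 by the quasi-likelihood test of edgeR (−1.06, adjusted p = 0.031), while without control replicates 1 and 2 it was at 0.16.

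Markers of other cell types moved in the same ingSAT libraries. Of 7 fibroblast markers 5 were called lower, with the sums given above, and control replicate 3, the lowest control for Igfbp5, Igfbp6 and Igfbp7, also had the lowest fibroblast sum. Of 6 macrophage markers 3 were called lower. Endothelial markers summed to 763, 695 and 292 CPM in control replicates 1, 2 and 3 and to 385 to 437 CPM at 10 °C, with 1 of 6 called lower. Osteoblast markers had 4328, 2379 and 318 CPM in the same controls and 184 to 338 CPM in the cold. This list shares Col1a1 with the fibroblast list, so its sum is not a separate sign of osteoblasts. Skeletal muscle markers had 2778, 2746 and 1081 CPM against 25.2 to 1625 CPM. For the endothelial, osteoblast and muscle sums control replicate 3 lay within the cold range or below it. All 6 brown adipocyte markers were called higher, their sum going from between 175 and 251 CPM to between 2250 and 2942 CPM. Their part in the binding protein changes was not tested.

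Of the 28 other pathway genes 21 were tested in ingSAT at 10 °C, and 8 were called lower and none higher. Over all genes 16.4% were called there and 9.27% were lower. Irs2 fell from 109 ± 25.4 to 44.4 ± 10.4 CPM (SD, n = 3 each; −1.30, adjusted p = 0.0268, edgeR) and Htra3, a secreted serine protease, from 152 ± 18.3 to 69.9 ± 21.6 CPM (−1.12, adjusted p = 0.0328, edgeR). The related Htra1 (−1.20), stanniocalcin 2, which blocks PAPP-A (Stc2, −1.36), Pappa2 (−1.19), the receptors Igf2r (−0.99) and Igf1r (−0.63) and the adaptor Grb10 (−0.64) were called without an adjusted p under 0.05. The calls of Igf1r, Igf2r, Grb10 and Pappa2 were each lost when 1 of 3 or more of the 6 libraries was left out, control replicates 1 and 2 among them, and those of Irs2, Stc2, Htra1 and Htra3 were not lost in this way. Without both of these controls Irs2 (−1.38), Stc2 (−1.38) and Htra3 (−1.11) were still called and Htra1 (−0.54) was not. The IGF-1 receptor gene Igf1r had 46.9 to 67.6 CPM at 22 °C and 35.9 to 40.6 CPM at 10 °C.

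In iBAT at 34 °C 8 of 10 members were tested and 3 were called, 2 higher and 1 lower, each with an adjusted p under 0.05. Over all 12318 genes 19.4% were called (11.9% higher and 7.56% lower) and 15.7% were also under that adjusted p, so the share of members called is read against a depot in which many genes moved. Igfbp1 and Igfbp2 had no count in any of these 6 libraries.

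Igfbp3 had 11.9, 11.6 and 13.96 CPM at 22 °C and 34.0, 25.9 and 20.1 CPM at 34 °C in iBAT. Each warm library was above each control, and this amounted to 1.09 on the log2 scale (with a standard error of 0.19; adjusted p = 0.00758, edgeR). Igfbp7 rose from 70.9, 73.0 and 57.6 CPM to 119, 110 and 100 CPM (0.71, standard error 0.12; adjusted p = 0.00616, edgeR). Igfals moved the other way, from 19.1, 9.83 and 12.4 CPM to 6.62, 5.48 and 7.83 CPM (−1.05, standard error 0.26; adjusted p = 0.0235, edgeR). The ranges of these 3 genes did not overlap, as for 48.4% of all genes tested. All 3 calls stood without any single library.

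Ghr in warm iBAT was 272, 251 and 287 CPM against 231, 173 and 205 CPM at 22 °C, without overlap. Its log2 fold change, 0.41 (with a standard error of 0.13; adjusted p = 0.0453, edgeR), is under the fold limit. Igf1 went from 24.7 ± 8.43 to 34.3 ± 1.79 CPM (SD, n = 3 each; 0.48, adjusted p = 0.14, edgeR), and without control replicate 1 it was called higher (0.77, adjusted p = 0.0192, edgeR). Igfbp4 and Igfbp5 averaged 70.2 and 147 CPM at 22 °C and 68.2 and 154 CPM at 34 °C. With scaling by library size only, the median log2 fold change of all genes in this comparison was 0.30 and 6 members were called, Igf1, Ghr and Igfbp6 besides the 3, and the called genes split 3086 higher and 408 lower instead of 1463 and 931. In that scaling the log2 fold changes were 0.76 for Igf1, 0.70 for Ghr and 0.67 for Igfbp6, each to be read against the shifted median.

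Endothelial markers in warm iBAT summed to between 922 and 1290 CPM against 663 to 866 CPM at 22 °C, and 4 of the 6 were called higher. Fibroblast markers summed to between 1818 and 1990 CPM against 999 to 1568, with 1 of 7 called higher, and macrophage markers to between 254 and 411 CPM against 125 to 212, with 2 of 6 called higher. None of these sums overlapped between temperatures. Skeletal muscle markers were uneven, with 4444 CPM in control replicate 2 against 2.88 and 8.48 CPM in the other controls and 947 to 3513 CPM at 34 °C. Their part in the rise of Igfbp3 and Igfbp7 was not tested. Of the other pathway genes 16 were tested in warm iBAT and 4 were called, beside 19.4% of all genes. Igf2r, which clears IGF-2, rose from 108 ± 10.9 to 192 ± 16.2 CPM (SD, n = 3 each; 0.83, adjusted p = 0.00304, edgeR) and Cish went from 31.04 to 97.4 CPM with overlap (1.65, adjusted p = 0.0692, edgeR). Irs1 (−0.78) and Stat5a (−0.66) were lower, at adjusted p values of 0.00837 and 0.00859 in edgeR. The call of Cish was lost without control replicate 1 or without 34 °C replicate 1 or 3. Igf1r (0.53) and Insr (−0.53) had adjusted p values of 0.0366 and 0.0157 under the fold limit.

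In iBAT at 10 °C none of the 8 members tested was called, where 13.2% of 12793 genes were. By edgeR's quasi-likelihood test 0 members had an unadjusted p under 0.05, and 0 were called by edgeR's exact test or DESeq2. Igf1 had 71.02, 47.1 and 37.5 CPM at 22 °C and 46.7, 32.4 and 38.8 CPM at 10 °C (−0.39, adjusted p = 0.302, edgeR), and Ghr averaged 397 and 346 CPM. Igfbp7 (65.8 against 63.9 CPM), Igfbp5 (94.3 against 88.1) and Igfbp4 (64.8 against 64.7) had nearly equal means at 22 °C and 10 °C. Igfals and Igfbp3 were uneven in the cold because replicate 2 had 18.8 and 29.6 CPM of them against 5.05 to 7.90 and 14.5 to 14.7 CPM in the others. Without that library Igfals (−0.81) and Igfbp6 (−0.61) were called lower, at adjusted p values of 0.188 and 0.155 in edgeR. Igfbp1 had up to 3 counts in a control library and none in the cold ones, and hepatocyte markers summed to 46.7 to 85.4 CPM in these controls against 0.191 to 0.888 CPM at 10 °C.

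Of 20 other pathway genes tested in cold iBAT, 1 was called higher and 3 lower, beside the 13.2% of all genes called there. Irs2 fell from 180 ± 74.8 to 44.4 ± 29.9 CPM (SD, n = 3 each; −2.03, adjusted p = 0.0227, edgeR) and Pappa, the protease that cuts IGFBP-4, from 6.09 ± 1.68 to 2.53 ± 0.0951 CPM (−1.27, adjusted p = 0.0136, edgeR). Cish went from 19.8 to 70.7 CPM with overlap (1.83, adjusted p = 0.0417, edgeR), and the ghrelin gene Ghrl from 2.64 to 1.43 CPM (−0.87, adjusted p = 0.0827, edgeR), a call lost without control replicate 2. Irs1 was 96.9 CPM at 22 °C and 70.2 at 10 °C (−0.47, adjusted p = 0.0473, edgeR), under the fold limit. Fibroblast markers summed to between 1430 and 1832 CPM in the controls and between 898 and 1293 CPM at 10 °C, and skeletal muscle markers to between 6049 and 8367 against 2335 to 4907 CPM, and their part in these changes was not tested.

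In pgVAT at 10 °C 9 members were tested and Igfbp5 was called lower, where 8.17% of 14863 genes were called, 3.17% lower, with an adjusted p of 0.586 or more. Igfbp5 had 250, 362 and 379 CPM at 22 °C and 102, 231 and 139 CPM at 10 °C, without overlap (−1.07, standard error 0.38; adjusted p = 0.586, edgeR). The call was lost without 10 °C replicate 1 (−0.83) or 3 (−0.99) or control replicate 2 (−0.999) or 3 (−0.94), and 11.9% of all genes had groups without overlap. The 2 cold libraries with high epididymis markers, replicates 1 and 3, also had the lowest adipocyte marker sums, 13518 and 9512 CPM against 29672 CPM in replicate 2 and 19381 to 32702 CPM at 22 °C. In the same 2 libraries Igf1 was 279 and 142 CPM and Ghr 1097 and 581 CPM, while replicate 2 had 685 CPM of Igf1 and 2251 CPM of Ghr, inside the control ranges of 301 to 805 and 1330 to 3388 CPM. With both left out, a setting added after the data were seen, in which the single remaining cold library is assumed to vary like the controls, Igfbp5 was at −0.45 (adjusted p = 0.972, edgeR) and not called. Igf1 was then at 0.25 and Ghr at 0.04, and Igfals was called higher instead (1.28, adjusted p = 0.21, edgeR), from 25.4 to 40.4 CPM in the controls to 79.3 CPM. With replicate 2 left out instead, 4 members were called lower: Igf1 (−1.56), Ghr (−1.49), Igfbp5 (−1.48) and Igfbp4 (−1.19). Of the other pathway genes 22 were tested in pgVAT and 5 were called, all at an adjusted p of 0.586 in edgeR and all lost when 1 library or another was left out. Igf1r (1.41) and stanniocalcin 1 (Stc1, 1.55) were higher and Htra3 (−1.32), Irs2 (−1.06) and Stc2 (−0.81) lower. Without the same 2 libraries none of the 5 was called by edgeR, and Igf1r was at −0.39.

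Whether a depot's change at 10 °C differed from another depot's was tested directly, with all 48 libraries of the 8-tissue table in 1 edgeR fit. Of 15887 genes 13.1% differed by the same limits between iBAT and ingSAT, 16.7% between iBAT and pgVAT and 18.8% between ingSAT and pgVAT. Of the members 7 depot differences were called. The changes of Igfbp7, Igfbp5 and Igfbp3 were higher in iBAT than in ingSAT by 1.52 (standard error 0.43; adjusted p = 0.0443), 1.30 (standard error 0.46; adjusted p = 0.119) and 1.29 (standard error 0.44; adjusted p = 0.106) on the log2 scale, by edgeR. The changes of Igfbp6, Igfbp7 and Igfbp3 were lower in ingSAT than in pgVAT by 2.04, 1.51 and 1.43 on the log2 scale, at edgeR adjusted p values of 0.0343, 0.0236 and 0.0422. With only these 2 depots in the fit the same 3 were called at adjusted p values of 0.447, 0.465 and 0.499 in edgeR. The change of Igfbp5 in iBAT was 0.97 above that in pgVAT (adjusted p = 0.206, edgeR). Without the 2 pgVAT libraries with epididymis markers that last value was 0.34 and no longer called, while the other 6 were still called, and it missed the p limit when only these 2 depots entered the fit (0.98). It was also lost without any 1 of iBAT 10 °C replicate 1, iBAT control replicate 2, pgVAT 10 °C replicate 1 or 3 or pgVAT control replicate 2 or 3, at 0.70 to 0.93. Fits of 2 depots at a time called 8 differences, adding Igfbp4 (0.67) and Igfbp6 (1.05) between iBAT and ingSAT. Without ingSAT control replicates 1 and 2, 2 of the 7 were called, Igfbp3 between ingSAT and pgVAT (−1.13) and Igfbp5 between iBAT and pgVAT (0.97). The difference of Igfbp7 was then 0.89 between iBAT and ingSAT and −0.88 between ingSAT and pgVAT, that of Igfbp6 between ingSAT and pgVAT −1.16, and those of Igfbp5 and Igfbp3 between iBAT and ingSAT 0.19 and 0.99. The difference of Igfbp3 between iBAT and ingSAT was lost without iBAT 10 °C replicate 2 (0.80) and that between ingSAT and pgVAT without pgVAT 10 °C replicate 3 (−0.76), and the difference of Igfbp5 between iBAT and ingSAT without ingSAT control replicate 1 (0.93). Leaving the brain library with liver transcripts out of the fit raised the count to 10, by Igfbp4 between iBAT and ingSAT (0.77, adjusted p = 0.138) and between iBAT and pgVAT (0.74, adjusted p = 0.123) and by Igfals between ingSAT and pgVAT (−1.32, adjusted p = 0.0978), in edgeR's test. The contrasts share libraries, each depot entering 2 of the 3. The fit treats all libraries as independent, although libraries of different depots may come from the same mice.

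The fat depots are shown library by library in the plot of 4 fat comparisons, and the changes at 10 °C side by side in the plot of depots.

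**Figure D2:**
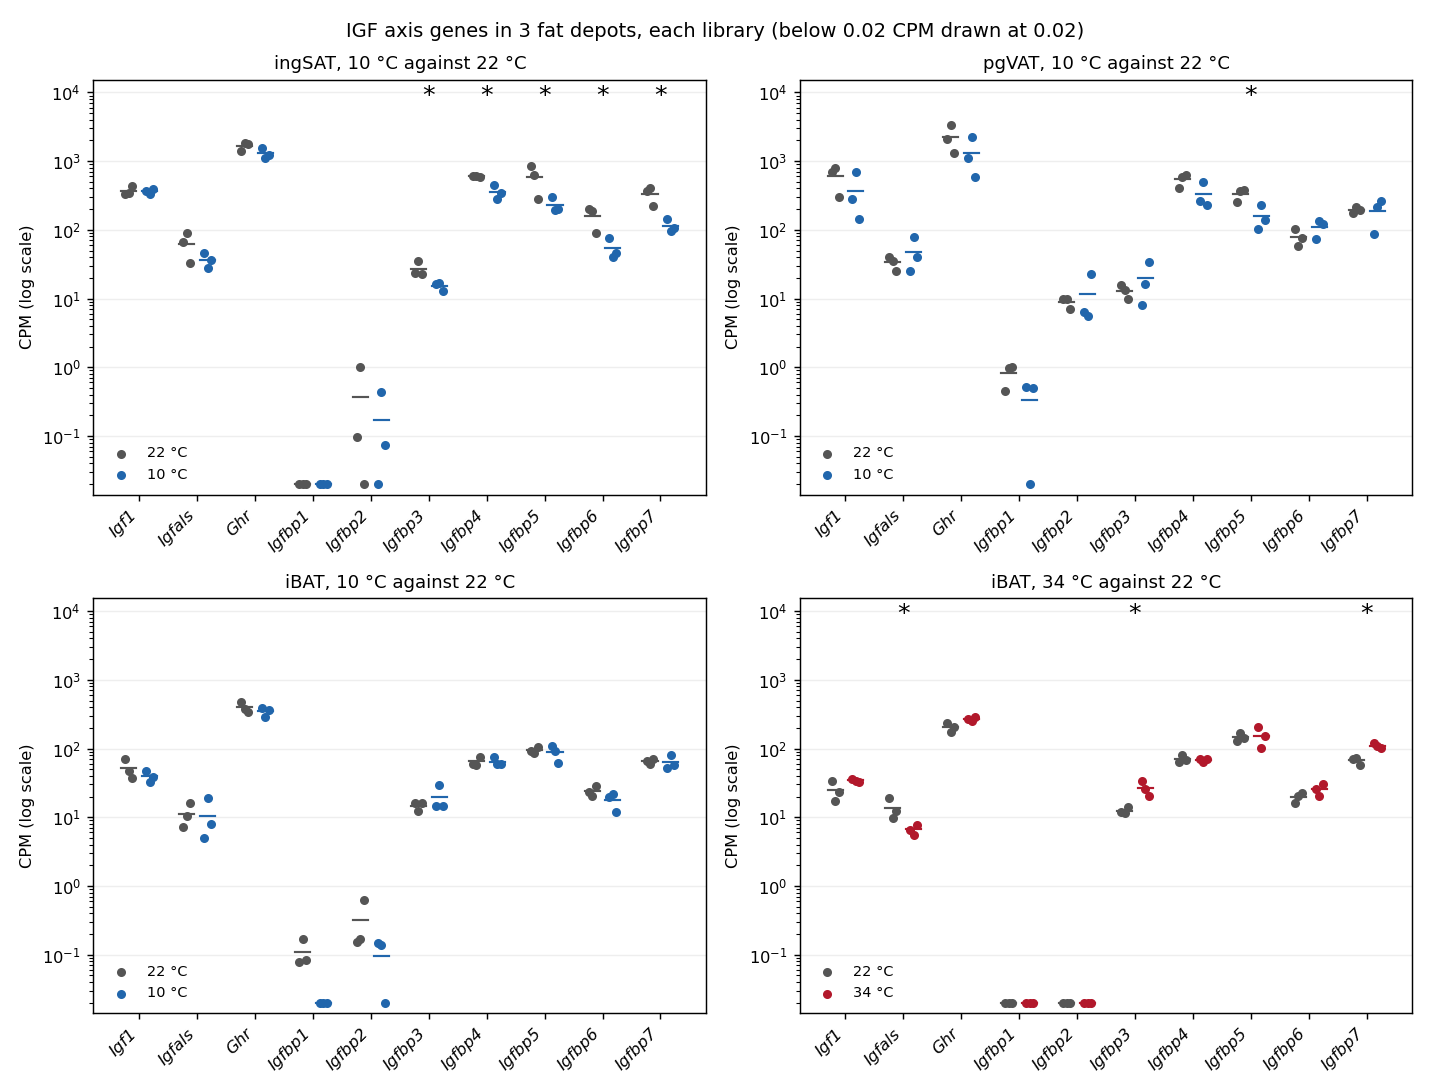
CPM of the 10 members in each fat library on a log axis, in 1 panel each for iBAT at 10 °C, iBAT at 34 °C, ingSAT at 10 °C and pgVAT at 10 °C beside its own 22 °C libraries. Points are libraries, short lines group means and stars called members, and values below 0.02 CPM are drawn at 0.02. The 5 stars of ingSAT stand over Igfbp3 to Igfbp7, those of warm iBAT over Igfals, Igfbp3 and Igfbp7, and that of pgVAT over Igfbp5.

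**Figure D3:**
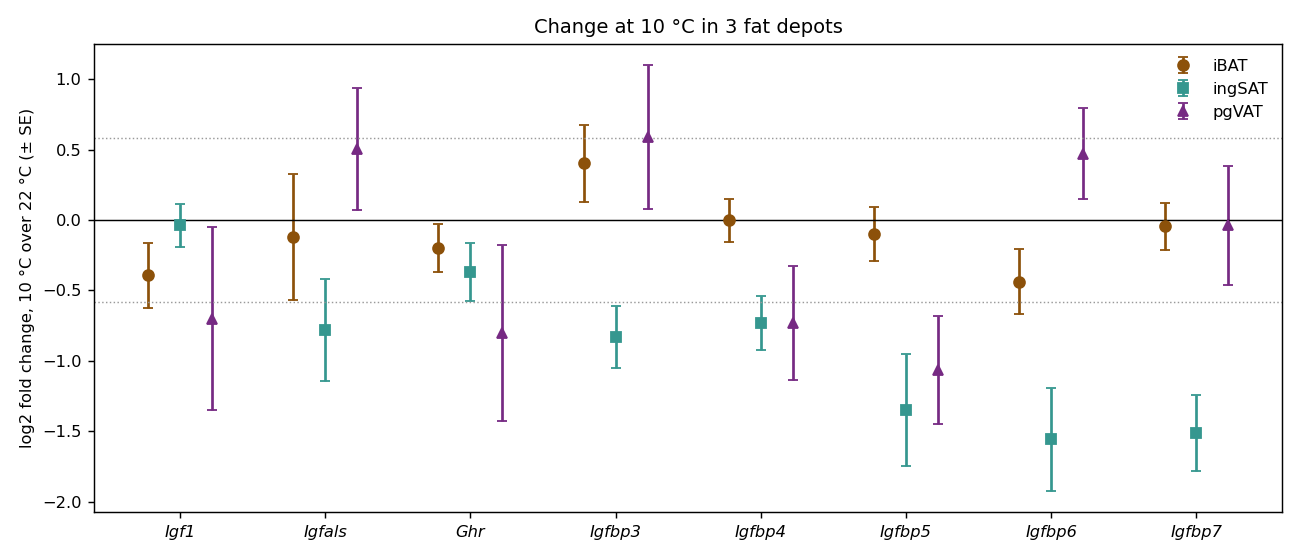
Log2 fold change at 10 °C over 22 °C of the members tested in iBAT, ingSAT and pgVAT, with bars of 1 standard error from the edgeR fits and dotted lines at the fold limit of 1.5. For Igfbp7 the ingSAT value is −1.51 while the iBAT and pgVAT values are both −0.04.

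Outside liver and fat, members were called in spleen at 10 °C and quadriceps at 34 °C, and in brain at 10 °C only through 1 library. In spleen Igfbp5 had 45.1, 41.6 and 32.5 CPM at 22 °C and 63.7, 60.3 and 71.5 CPM at 10 °C. Every cold library was above every control (log2 fold change 0.71, standard error 0.13; adjusted p = 0.237, edgeR), in a comparison with 2.71% of genes called, 0.638% higher, and 16% with groups apart, and the call stood without any single library. Igfbp7 and Igfbp3, both abundant in spleen, averaged 561 and 190 CPM at 22 °C and 556 and 214 CPM at 10 °C and were not called. Endothelial markers summed to between 455 and 525 CPM at 22 °C and between 523 and 582 CPM at 10 °C, and their part in the Igfbp5 difference was not tested.

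In quadriceps Igfbp5 had the highest level per kilobase of all members, and it stood lower at 34 °C. Its levels were 507 to 660 CPM in the 3 warm libraries and 703 to 1196 CPM (median 880.5) in the 6 controls, without overlap (−0.69, standard error 0.18; adjusted p = 0.638, edgeR), where 1.24% of genes were called, 0.854% lower, and 3.59% had groups without overlap. The labels do not say which control libraries go with which temperature. With only the 3 control columns whose names start like the 34 °C columns, the log2 fold change was −0.43 and under the fold limit. These 3 controls had 703 to 816 CPM, and the other 3, named like the 10 °C columns, had 945 to 1196 CPM. The part of supplier in this was not tested. At 10 °C Igfbp5 was 1310 ± 241 CPM (SD, n = 3) against 952 ± 191 (SD, n = 6), which is 0.46 on the log2 scale (adjusted p = 0.353, edgeR), and 0.26 against its own like-named columns. No member was called there by edgeR's quasi-likelihood test, with 3.27% of genes called, and Igfbp5 was the single member with an unadjusted p under 0.05.

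Brain at 10 °C gave 2 calls, Igfals (−6.84) and Igfbp1 (−10.35), both from the 22 °C library with liver transcripts, which had 97.5 CPM of Igfals and 90.9 CPM of Igfbp1. It also had 584 CPM of Ghr, 350 of Igfbp2 and 679 of Igfbp4. Without it no member was called, Igfals and Igfbp1 fell under the filter, and the log2 fold changes were 0.20 for Igf1, 0.02 for Ghr and −0.15 for Igfbp2. With it 2.73% of genes were called.

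In bone marrow Igf1 was 11.5 to 24.04 CPM (median 19.8) at 22 °C and 23.8 to 26.6 CPM (median 24.7) at 10 °C, just overlapping (0.43, standard error 0.15; adjusted p = 0.048, edgeR), and under the fold limit. The receptor genes Igf1r (−0.25) and Igf2r (−0.16) had adjusted p values of 0.0211 and 0.0422 there by edgeR, also under that limit. No member was called in bone marrow (1.26% of genes called), ileum at 10 °C (2.73%) or 34 °C (2.91%), spinal cord (0.271%), brain at 34 °C (0.193%) or hypothalamus (0.578%). At an unadjusted p under 0.05 by edgeR, Igf1 in bone marrow was the single member in these 6 comparisons, and edgeR's exact test called 1, Igfbp3 in spinal cord, while DESeq2 called 0. Hypothalamic Igfbp6 hung on 1 control: it had 0.981, 7.80 and 1.89 CPM at 22 °C and 4.15 to 6.32 CPM at 10 °C, and without control replicate 2 the log2 fold change was 1.82 (adjusted p = 0.052, edgeR). In spinal cord Igfbp3 averaged 22.4 CPM at 22 °C and 14.5 at 10 °C (−0.63, adjusted p = 0.779, edgeR), with 9.31 CPM in the lowest control and 33.2 in the highest.

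**Figure D4:**
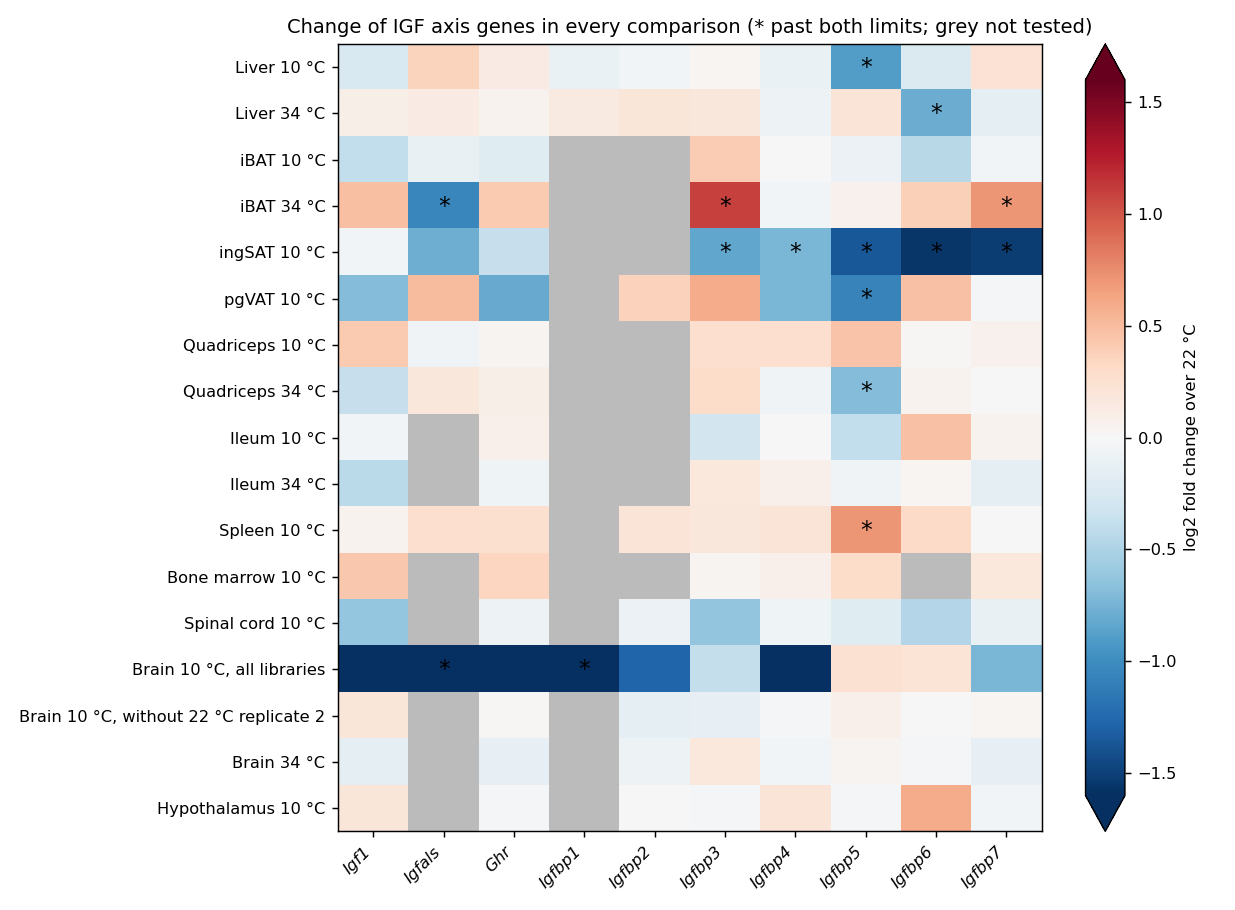
Log2 fold change over 22 °C of each member (columns) in all 16 comparisons (rows), coloured from lower in blue to higher in red, with stars for called members and grey for members not tested. Brain at 10 °C has 1 row with all libraries and 1 row without the 22 °C library with liver transcripts, where the dark blue cells and both stars are gone, and ingSAT is the row with most stars, 5.

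Across tissues at 22 °C the members divide by site. Levels between genes are compared per kilobase of exon, within the cold set and its controls, without the brain library with liver transcripts, and tissues sequenced with different kits are set side by side without a test. Liver led for Igfbp2 (268 CPM per kilobase), Igfbp4 (251), Igfbp1 (65.5), Igf1 (64.1) and Igfals (46.4). Igf1 in liver overlapped with pgVAT (60.5 CPM per kilobase) and pgVAT with ingSAT (37.6), and all other tissues were lower, at 7.92 CPM per kilobase in spleen or less. Igfbp1 was nearly confined to liver, with 0.534 CPM per kilobase in pgVAT next and no count at 22 °C in ingSAT, quadriceps, spleen, bone marrow or the 2 brain libraries. White fat led for Ghr, at 252 CPM per kilobase in pgVAT and 184 in ingSAT with overlapping libraries, above liver (73.9).

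The matrix-linked binding proteins had other sites. Igfbp7 was highest in spleen (464 CPM per kilobase), then in ingSAT (273) and pgVAT (161), without overlap between neighbours in that order. Igfbp3 was also highest in spleen (60.6), and the next 9 tissues lay between 4.14 and 9.98 CPM per kilobase with each overlapping the next in order. Igfbp5 led in quadriceps (159), overlapping with ingSAT (98.7), and was lowest in liver (2.42). Igfbp6 led in ingSAT (143), overlapping with pgVAT (71.1), and was lowest in bone marrow (0.406). After liver, Igfbp2 was next in brain (41.2) and spinal cord (20.9).

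**Figure D5:**
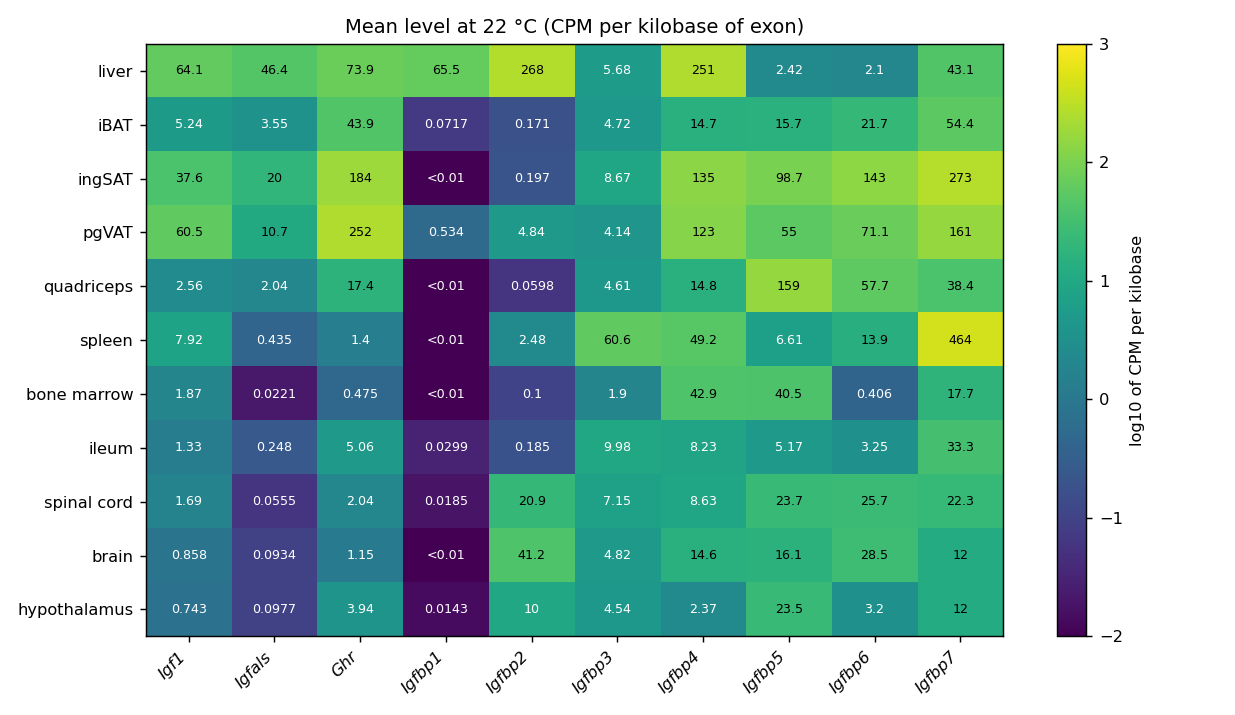
Mean level at 22 °C of each member in each tissue, in CPM per kilobase of exon (numbers in the cells), coloured by its log10. The Igfbp1 column is bright in liver alone, while Igfbp5 peaks in quadriceps and Igfbp7 in spleen.

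Genes with the most similar pattern were ranked by Pearson's r over the 8 tissues of the table with the most libraries, among 17212 genes. The values were log2(CPM + 0.5) of each library at 22 °C, averaged within a tissue, with CPM here by plain library total without TMM. The ranking is a description over 8 points. Igfbp1 was followed most closely by the liver genes Cyp2c39, Cyp4a12a and Acnat2 (r = 0.999 for each), and 229 genes had an r over 0.95 with it. Ghr was closest to the insulin receptor gene Insr (r = 0.988), then to Gstz1 (0.976) and Sntb1 (0.971), and Igf1 to Vnn3 (0.991), Cd302 (0.978) and Sucnr1 (0.975). Igfals was closest to the acute phase gene Orm1 (0.987), then to Pla1a (0.983) and Pxmp4 (0.982). Igfbp5 was closest to Sbsn (0.990), the receptor gene Fgfr1 (0.987) and Plekhg5 (0.984), and Igfbp7 to Slc43a1 (0.990), the macrophage receptor gene Mrc1 (0.989) and Clec4a3 (0.989). Igfbp3, whose peak is in spleen, was closest to the lymphocyte receptor segments Traj21 (0.995), Igkv4-81 (0.993) and Trbv17 (0.990), and 130 genes had an r over 0.95 with it. Igfbp2 was closest to Zfand4 (0.960), Elovl2 (0.957) and Evi5 (0.951). Igfbp4 and Igfbp6 had no gene over 0.95, with Ftl1 (0.945), Vnn3 (0.942) and Igf1 itself (0.942) next to Igfbp4 and Mitf (0.931), Trabd2b (0.928) and 1700020L24Rik (0.926) next to Igfbp6.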

How the data were processed

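RNA of 11 mouse tissues was sequenced in 106 libraries, and the values used are raw read counts per gene in 4 tables that the authors deposited. The submitters' processing notes name mm10, STAR 2.5.3a, Picard 1.141 and HTSeq 0.6p1, and no gene is normalized in these tables. The table of 8 tissues was made with a NEBNext Ultra kit and the other 3 with a stranded TruSeq kit in another facility, so the tables were fitted apart. Samples were grouped by the tissue and temperature in the labels, and all table columns were used.

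The 16 comparisons were each fitted apart in edgeR 4.0.16 (R 4.3.3) with TMM scaling, for genes whose average log2 CPM was above 0, by the two-sided quasi-likelihood F-test. A call needed p of at most 0.05 and a fold above 1.5, and p values were adjusted by Benjamini and Hochberg over all genes tested. CPM values were scaled by TMM within a comparison, and standard errors are the log2 fold change divided by the root of F. Differences between fat depots came from 1 fit of the 8-tissue table. Both steps were tested on simulated counts with known changes. These were drawn with the same dispersion for every gene and no outlying library, so they do not show how the fits behave with the uneven libraries here. The p values measure the spread between libraries, most of which pool mice. Gene positions are from GENCODE M21 and promoter windows from RefSeq GRCm38.p6.

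The members and lists were chosen with earlier results of these data known. All 10 members are described, with library values for those called in liver or fat. Of 28 other pathway genes and 2 liver lists, those called in liver or fat, or with an adjusted p under 0.05 elsewhere, are named, as are the 3 genes most like each member. Alternatives were edgeR's exact test, DESeq2 1.42.0, scaling by library size, other filters, an adjusted p, leaving out each library and the replicate number as a block. The quadriceps controls chosen by column name, pgVAT and ingSAT each without 2 libraries and the depot fit without 1 brain library were added after the data were seen. ingSAT and pgVAT at 34 °C were not analysed here.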

Additional observations from a re-analysis of the deposited data

Results flagged for a closer look

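In groups of 4 to 10 libraries, the lowest or highest library was tested for its distance from the others with Dixon's 95% critical value, over 47 pairs of a member and a group in 5 groups, and 10 stood apart. Chance alone would flag about 1 in 20. In bone marrow at 10 °C, replicate 2 was the lowest library for 3 members, with 3.25 CPM of Ghr against 5.47 to 6.54 in the others, 177 CPM of Igfbp5 against 305 to 369, and 14.6 CPM of Igfbp7 against 24.3 to 27.8. In bone marrow at 22 °C, replicate 6 had 0.129 CPM of Igfals, which is 2 counts, against 0.0561 to 0.0611.

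In spinal cord at 10 °C, replicate 4 had 57.8 CPM of Igfbp2 against 28.01 to 33.3 in the others, and replicate 5 had 162 CPM of Igfbp5 against 109 to 120. Igfals was at 0.290 CPM (8 counts) in replicate 3 and Igfbp1 at 0.0372 CPM (1 count) in replicate 1 of that group, with no count in the other libraries. A single read among zeros always stands apart by this measure, so the values of 1 and 2 counts are not read as differences. In spinal cord at 22 °C, replicate 1 had 0.568 CPM of Igfals against at most 0.161, and replicate 5 had 44.1 CPM of Igfbp4 against 35.3 to 37.6.

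The log2 change at 10 °C differed between fat depots in 7 cases, by the interaction term of the edgeR fit at an unadjusted p. The edgeR adjusted p was 0.106 for Igfbp3 and 0.119 for Igfbp5 between iBAT and ingSAT. It was 0.206 for Igfbp5 between iBAT and pgVAT, and under 0.05 for the rest. The differences that involve ingSAT were smaller without ingSAT control replicates 1 and 2, as given above. Between iBAT and ingSAT the differences were 1.30 for Igfbp5, 1.29 for Igfbp3 and 1.52 for Igfbp7. Between iBAT and pgVAT the difference was 0.97 for Igfbp5. Between ingSAT and pgVAT they were −1.43 for Igfbp3, −2.04 for Igfbp6 and −1.51 for Igfbp7.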

How the results depend on the processing

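Among the members called in liver or fat, Igfbp3, Igfbp7 and Igfals in iBAT at 34 °C kept their direction and their call under every alternative run, and Igfbp6 in ingSAT under every one but the loss of control replicates 1 and 2. The call of Igfbp7 in ingSAT also stood there, at an adjusted p of 0.206. Without those 2 libraries 1 member was called in ingSAT and 2 depot differences remained. With an adjusted p under 0.05 asked for, 0 members were left in liver at 10 °C, in liver at 34 °C, in pgVAT and in the other tissues at either temperature, 2 in ingSAT and 4 depot differences. With scaling by library size only, 1 member was called in iBAT at 10 °C (Igfbp6), 6 in iBAT at 34 °C and 5 in the other tissues at 10 °C. With every gene of more than 1 count kept, the counts were 1 in iBAT at 10 °C, 5 in the other tissues at 10 °C and 2 in those at 34 °C. Another test gave 6 calls in the other tissues at 10 °C (edgeR's exact test), 2 there and 2 in pgVAT by DESeq2, and 6 in ingSAT by either. Of the exact-test calls in the other tissues at 10 °C, Igf1, Ghr, Igfbp4 and Igfals were in brain, with the library with liver transcripts in the fit. Without that library the main test called 1 member in the other tissues at 10 °C. With the like-named quadriceps controls 0 members were called at 34 °C.

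When each library was left out in turn there were 0 to 1 called members in liver at 10 °C and at 34 °C, 0 to 2 in iBAT at 10 °C, 3 to 4 in iBAT at 34 °C, 4 to 6 in ingSAT, 0 to 4 in pgVAT, 1 to 6 in the other tissues at 10 °C, 1 to 2 in those at 34 °C and 5 to 10 depot differences. In the other tissues at 10 °C the count of 6 came without brain control replicate 1 or 3, with the library with liver transcripts still in. Without that library, or without any 1 brain library at 10 °C, the count was 1. Of 797 values of members that were not called, 22 became called when 1 library was left out. Without pgVAT 10 °C replicates 1 and 3 the change of Igf1r turned from 1.41 to −0.39. The cause of these shifts was not tested, other than by the libraries named.

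Where both groups carry replicate numbers, no comparison had every same-numbered pair correlated above 0.1, and the main fits did not pair libraries by number. This rule cannot exclude pairing, because few libraries enter each comparison. Same-numbered correlations ran from −0.690 in spleen replicate 2 to 0.430 in iBAT replicate 1. With the replicate number as a block, the value of Igfals in brain was −3.74 and not called, which left 2 calls in the other tissues at 10 °C, and no other call of a member changed. Columns of the spinal cord controls and of the second table carry numbers that do not match those in the sample titles, so no block was run there. The quadriceps alternative by the codes in the sample titles was not run because the columns do not carry them. Depth ran down to 4262403 counts in a pgVAT library, which limits members with few counts there.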
